A study of Mus musculus with 5 samples.

Results

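The genes described here are 8 ligands of the activin, bone morphogenetic protein (BMP) and growth differentiation factor (GDF) group and 1 secreted antagonist of BMPs. They are Inhba, Inhbb, Bmp2, Bmp4, Bmp6, Gdf6, Gdf10, Gdf15 and Grem1. They were found by name in the deposited tables, which list 20365 genes over 40428 distinct 3′ untranslated region (3′ UTR) intervals. Intervals were chosen by the mean CPM (reads relative to a library's total) in the labeled libraries, the highest for each gene. Each of the 9 genes had 1 interval in the tables, so that this choice left out nothing and the values below are those of all 9 genes.

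The libraries came from cardiac fibroblasts (CF) of adult healthy male C57Bl/6J wildtype mice, which the methods give as 10 to 12 weeks old. The cells were depleted of CD31+ endothelial and CD45+ immune cells per the methods, grown to confluency in 2 wells per sample and analysed by SLAMseq. In this assay the uridine analog 4-thiouridine (S4U) is taken up into RNA made during the incubation, and alkylation of the RNA makes each S4U read as a T>C conversion. The labeled group held 3 libraries of cells given 0.1 mM S4U for 12 h, and the unlabeled group held 2 libraries of cells cultured alongside without S4U, with RNA alkylated in both groups. The study's reporting summary counts 3 fibroblast preparations for this assay. Nothing in the labels ties a library to a mouse or preparation, so that the p-values measure the spread between these libraries only.

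Activins and BMPs are secreted dimers of the TGF-beta superfamily that bring together type I and type II serine/threonine kinase receptors. Activins signal mainly through Smad2 and Smad3, and most BMPs and several GDFs through Smad1, Smad5 and Smad9. Secreted antagonists such as gremlin, noggin and follistatin bind the ligands before they reach a receptor, and in the heart the balance of ligands and antagonists is known for its part in fibroblast activation and remodeling.

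The 3′ end libraries read only the ends of transcripts, so that the position and sequence of each interval decide what can be counted. All coordinates are on GRCm39 (mm39), and each sequence is written 5′ to 3′ on the strand of the gene as a window of 30 bases. The first set shows, in capitals, the last polyadenylation signal (AATAAA or ATTAAA) within each counted interval, because a read of these libraries starts near such an end.
Inhba, chr13:16206158-16206187, plus strand: ggccttatgttaAATAAAaagacctgtttg
Inhbb, chr1:119343199-119343228, minus strand: acagtataagacAATAAAagatggagtgcc
Bmp2, chr2:133404752-133404781, plus strand: cccatttcagatAATAAAtatcaaaattct
Bmp4, chr14:46620989-46621018, minus strand: atattaaaagaaAATAAAatgagtcattat
Bmp6, chr13:38684113-38684142, plus strand: catactaaactgATTAAAtaatacatttac
Gdf6, chr4:9862323-9862352, plus strand: taattctgtcttATTAAActcatttccccc
Gdf10, chr14:33658438-33658467, plus strand: tgtgaatagcaaAATAAAttaataccaggg
Gdf15, chr8:71082048-71082077, minus strand: taaaactctgctAATAAAggtgagcttggt
Grem1, chr2:113579027-113579056, minus strand: gaaccaagtgaaATTAAAaaagaaaatgtg

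The signal stood within the last 50 bases of the interval in 7 of the 9 genes, and 75.3% of all genes had one there. The exceptions were Bmp2, with its last signal 53 bases before the interval's end, and Bmp6, with it 166 bases before. For Bmp4, Gdf10 and Grem1 the annotated 3′ UTR ran on past the counted interval, by 732, 1469 and 2511 bases. These genes have a further signal at the annotated end, which lies outside what was counted.
Bmp4, chr14:46620258-46620287, minus strand: tggattttatccAATAAAacaaacagtagg
Gdf10, chr14:33659911-33659940, plus strand: aatacattttaaaataaAATAAAatcacac
Grem1, chr2:113576512-113576541, minus strand: agcaatcaataaATTAAAcctcttcttttt

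Transcripts that ended at these outer signals would give reads beyond the counted interval, so that the levels of Bmp4, Gdf10 and Grem1 are those of the inner end only. Among 19113 genes that could be matched to the annotation, 25.6% had an interval that ended more than 1000 bases short of the outermost annotated end. Of those genes 21.8% had 0 reads in every library, against 29.1% of the others.

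The intervals lay within the last exon of each gene except for that of Bmp6, which ran 10 bases past the annotated end. Their lengths were 4480 bases for Inhba (chr13:16201715-16206194), 1859 for Inhbb (chr1:119343193-119345051), 1181 for Bmp2 (chr2:133403636-133404816), 334 for Bmp4 (chr14:46620982-46621315) and 1246 for Bmp6 (chr13:38683045-38684290). The other lengths were 2061 bases for Gdf6 (chr4:9860285-9862345), 2001 for Gdf10 (chr14:33656471-33658471), 150 for Gdf15 (chr8:71082043-71082192) and 925 for Grem1 (chr2:113579020-113579944). Genes on the other strand overlapped 3 of them. Gm48444, a long noncoding RNA, covered the whole Inhba interval, Gm15217, another long noncoding RNA, covered 86 bases of the Bmp4 interval, and Txndc5 covered 236 bases of the Bmp6 interval. The library kit keeps strand, but whether the counting used it is not given in the sources used here, so that reads of these partners cannot be told apart.

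**Figure D1:**
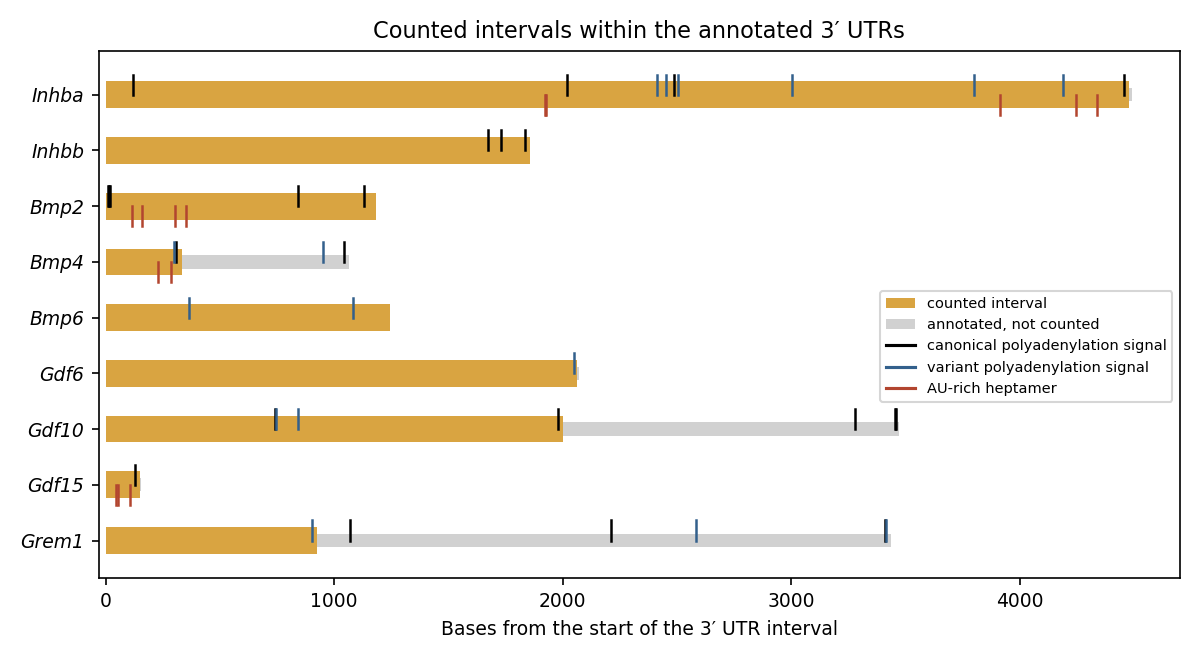
Horizontal bars show each gene's annotated 3′ UTR in bases from the interval's start, with the counted interval thick and the uncounted remainder thin and grey. Ticks above mark polyadenylation signals and ticks below the AU-rich heptamer TATTTAT. Uncounted stretches of 732, 1469 and 2511 bases follow the intervals of Bmp4, Gdf10 and Grem1.

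AU-rich elements are short motifs of 3′ UTRs that many unstable messengers of cytokines and growth factors carry. The pentamer ATTTA, the heptamer TATTTAT that contains it and the nonamer TTATTTATT that contains both were searched on the strand of the gene, with overlapping matches counted. A window is shown for each of the 4 genes with TATTTAT, to place the motif among its neighbouring bases, and counts are set against intervals of like length (80 to 125% of the gene's own length). The capitals mark TTATTTATT in Inhba and TATTTAT in the other genes.
Inhba, chr13:16206040-16206069, plus strand: atagcagaagTTATTTATTtctattccatt
Bmp2, chr2:133403977-133404006, plus strand: tagttaatttgTATTTATatgtaatcagaa
Bmp4, chr14:46621013-46621042, minus strand: tttgacaaataTATTTATaactacatatta
Gdf15, chr8:71082067-71082096, minus strand: gatggattgtgTATTTATttaaaactctgc

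The Inhba interval held 21 copies of ATTTA, where the median of intervals of like length was 7, and it held 3 copies of TTATTTATT, a motif present in 20.1% of intervals of like length. Gdf15 held 5 copies of ATTTA and 3 of TATTTAT within its 150 bases. Of intervals as short, 18.2% held ATTTA and 4.24% held TATTTAT. Bmp4 held 2 copies of TATTTAT, a motif in 7.76% of intervals of like length, and Bmp2 held 4, against 27.4%. Copies of ATTTA numbered 5 in Bmp6, 3 in Gdf6, 2 in Inhbb, 1 in Grem1 and 0 in Gdf10. The medians of intervals of like length were 2, 3, 3, 1 and 3 in the same order, and 90.9% of those like Gdf10 held a copy. These are matches of letters and were not tested as functional sites.

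Reads on 1 interval per gene numbered 1576048, 1194971 and 506045 in labeled replicates 1 to 3 and 1842863 and 996053 in unlabeled replicates 1 and 2. The third labeled library thus had the fewest counted reads, although the total behind its deposited CPM (14616278) was the largest of the 5 libraries. Over all intervals the T>C rate was 0.0353 to 0.0358 in the labeled libraries and 0.00111 and 0.000652 in the unlabeled ones. The 8 fibroblast markers were read in every library, with a summed level of 38742 to 42382 CPM in the labeled and 31375 and 34773 in the unlabeled libraries. The summed level was 145 to 256 against 179 and 263 CPM for 8 endothelial markers, 105 to 155 against 117 and 175 for 12 leukocyte markers and 1.90 to 7.53 against 2.17 and 9.04 for 8 cardiomyocyte markers, while it was 24.1 to 75.1 against 33.6 and 96.4 for 6 mural cell markers and 4.44 to 7.90 against 1.63 and 7.03 for 7 epicardial and mesothelial markers. Cd3e, Cd79a, Myl2, Ryr2, Msln and Krt19 of these lists had 0 reads in every library. The part of other cells in the results below was not tested.

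Levels are given as CPM relative to the reads counted on 1 interval per gene. On this scale Gdf6 and Inhba stood highest and Grem1 lowest. The labeled means were 574 ± 40.9 CPM (SD, n = 3) for Gdf6, 558 ± 235 for Inhba, 229 ± 23.7 for Bmp4, 149.8 ± 17.9 for Inhbb and 144 ± 47.2 for Gdf15. Those of Bmp6, Gdf10 and Bmp2 were 37.1 ± 3.10, 6.35 ± 5.17 and 3.89 ± 2.23 CPM, and that of Gdf10 was 3.50 CPM without labeled replicate 1. Gdf6 was above Inhba, Inhba above Bmp4 and Inhbb above Gdf15 in 4 of 5 libraries each, so that these neighbours had no fixed order. Gdf10 was above Bmp2 in 4 of 5 libraries, with 1 read each in labeled replicate 3. Bmp4 was above Inhbb in 5 of 5 libraries, while Gdf15 was above Bmp6 in the 3 labeled libraries and below it in both unlabeled ones. Both Gdf6 and Inhba exceeded 97.4% of the 9807 genes tested for reads, on the same scale, while Bmp6 exceeded 48.6% and Gdf10 1.60%.

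Per kilobase of interval the order changed, since the intervals ranged from 150 to 4480 bases. Gdf15 then led with a labeled mean of 961 CPM per kb, followed by Bmp4 with 686, Gdf6 with 279, Inhba with 124.5 and Inhbb with 80.6. Bmp6, Bmp2 and Gdf10 had 29.8, 3.29 and 3.17 CPM per kb. A transcript gives about 1 read start near its end in these libraries whatever its length, and both scales are shown because the tables do not say which end each read came from.

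**Figure D2:**
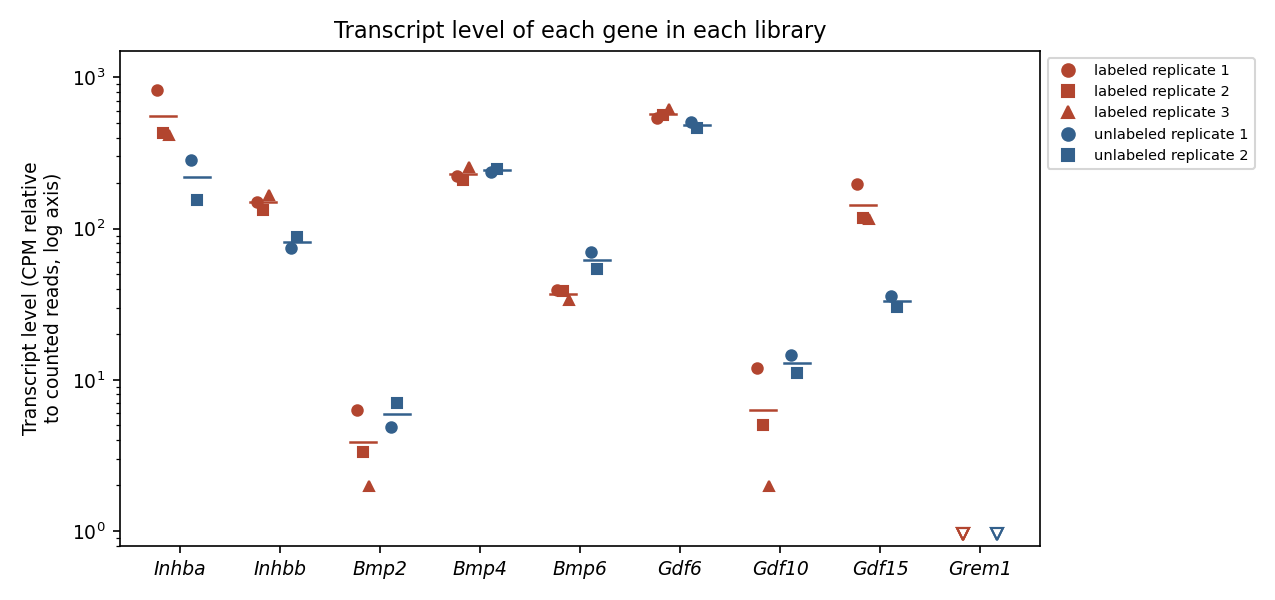
Points show the level of each gene in each library in CPM relative to counted reads on a log axis, short lines the group means and open triangles genes with 0 reads. Labeled libraries sit above both unlabeled ones for Inhba, Inhbb, Gdf6 and Gdf15 and below them for Bmp6.

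Inhba encodes the beta A subunit of activin A and Inhbb the beta B subunit of activin B. Inhba had 829, 429 and 415 CPM in the labeled libraries, from 1306, 513 and 210 reads, and 282 and 155 CPM in the unlabeled libraries, from 520 and 154 reads. Labeled replicate 1 was far above the other libraries and unlabeled replicate 1 above unlabeled replicate 2, and the groups did not overlap. The log2 fold change of reads, labeled against unlabeled, was 1.43 (SE 0.41, 95% interval 0.47 to 2.40), higher than that of 99.0% of genes tested, with an adjusted p of 0.627 (edgeR, quasi-likelihood test, Benjamini-Hochberg adjustment). It was 1.05 without labeled replicate 1.

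Inhbb had 149, 132 and 168 CPM in the labeled and 74.9 and 87.3 CPM in the unlabeled libraries. These groups did not overlap either, and labeled replicate 1 did not stand out. The log2 fold change of reads was 0.96 (SE 0.27, 95% interval 0.31 to 1.60) with an adjusted p of 0.627 by edgeR. The groups were thus apart for both activin subunits, but neither subunit passed the adjusted threshold in this test. A fit with the replicate number as a block, with 1 residual degree of freedom, called both. The labels do not say that a number marks a shared preparation.

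Bmp2 and Bmp4 encode closely related BMPs, and Bmp6 encodes a BMP best known for its control of iron balance from the liver. Bmp4 had 224, 208 and 255 CPM in the labeled and 238 and 248 CPM in the unlabeled libraries. The unlabeled values lay within the labeled range, and the log2 fold change of reads was -0.01 (SE 0.24, adjusted p of 1.00 by edgeR), with a 95% interval of -0.58 to 0.56.

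Bmp6 had 39.3, 38.5 and 33.6 CPM in the labeled libraries and 70.0 and 54.2 CPM in the unlabeled ones, from 17 to 129 reads. All labeled values were below both unlabeled values. The log2 fold change of reads was -0.66 (SE 0.28, 95% interval -1.31 to -0.01) with an adjusted p of 0.836 by edgeR. In the fit with the replicate number as a block the adjusted p of Bmp6 was 0.0418 by edgeR. Bmp2 was at the edge of detection, with 10, 4 and 1 reads in the labeled and 9 and 7 reads in the unlabeled libraries, and it was too low to be tested. Its levels of 6.35, 3.35 and 1.98 CPM overlapped the unlabeled 4.88 and 7.03 CPM.

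Gdf6 (BMP13) and Gdf10 (BMP3B) act in skeletal and joint development, and Gdf15 is a stress-induced cytokine whose receptor is GFRAL. Gdf6 varied little between libraries, with 538, 566 and 619 CPM in the labeled and 505 and 461 CPM in the unlabeled libraries. The groups did not overlap, yet the log2 fold change of reads was 0.33 (SE 0.23, 95% interval -0.22 to 0.88) with an adjusted p of 0.993 by edgeR.

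Gdf15 had the largest log2 fold change of reads among the 7 ligands tested. It had 199, 117 and 117 CPM in the labeled libraries, from 313, 140 and 59 reads, and 35.8 and 30.1 CPM in the unlabeled libraries, from 66 and 30 reads. The lowest labeled value was above both unlabeled values, and labeled replicate 1 was the highest. The log2 fold change was 2.20 (SE 0.35, 95% interval 1.38 to 3.02), a 4.60-fold difference that exceeded those of 99.7% of genes tested, and it passed 2 in 35 genes (0.357%). The adjusted p was 0.434 by edgeR and 0.000729 by DESeq2, which called 20 genes in all, so that the call depends on the tool. Over 12 alternative settings the adjusted p of Gdf15 ran from 9.53e-27, in a fit with 1 residual degree of freedom, to 1.00.

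Gdf10 had 19, 6 and 1 reads in the labeled libraries and 27 and 11 reads in the unlabeled ones. In CPM these were 12.1, 5.02 and 1.98 against 14.7 and 11.04, and labeled replicate 1 lay between the unlabeled libraries. The log2 fold change of reads was -0.78 (SE 0.63, 95% interval -2.26 to 0.69, adjusted p of 1.00 by edgeR), and it was -1.60 without labeled replicate 1.

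Grem1, which encodes the antagonist gremlin 1 that binds BMP2 and BMP4, had 0 reads in each of the 5 libraries. A count of 0 allows up to 1.90, 2.51 and 5.93 CPM in the labeled and 1.63 and 3.01 CPM in the unlabeled libraries (3 reads, counting error only). Grem1 was 1 of 6082 genes in this state, 29.9% of all. It was not detectable at this depth within the inner 925 bases of its 3′ UTR, and the outer 2511 bases were not counted.

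Bmp2 and Grem1 did not pass the filter on low reads. In total 4 of the 7 ligands tested for reads had every labeled library above both unlabeled ones, where 8.2% of genes tested did, and 1 of 7 had every labeled library below them, where 13.1% did. At an unadjusted p under 0.05, Inhba, Inhbb and Gdf15 were higher and Bmp6 lower, where 2.84% of genes tested were higher and 3.12% lower. By the unadjusted p of edgeR, Bmp6 passed in none of the 5 fits without 1 library (0.0777 to 0.259) and did not pass without the read filter (0.0764), nor by DESeq2 (0.124). Inhbb did not pass without unlabeled replicate 1 (0.0867) and Inhba not without unlabeled replicate 2 (0.0514), while Gdf15 passed in each of the 5 fits without 1 library. No gene passed an adjusted p of 0.05 in edgeR without a replicate block (0.0% of 9807), against 585 at an unadjusted p under 0.05. With the replicate number as a block, in a fit with 1 residual degree of freedom, 1145 genes did. The median log2 fold change over all genes tested was 0.02.

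The T>C rate, the share of covered T positions read as C, records how much of a transcript pool was made during the incubation. In the labeled libraries the mean rates of Inhba, Gdf6 and Gdf15 were above the upper quartile of deeply covered genes (that of Gdf15 only with labeled replicate 3 and without subtraction of its unlabeled rate), those of Inhbb, Bmp4 and Bmp6 were between the quartiles, and those of Gdf10 and Bmp2 rested on few reads. The mean rate of Bmp6 was 0.0470 without labeled replicate 3 and 0.0440 from summed conversions, both above the upper quartile, and that of Bmp4 was 0.0326 with its unlabeled rate subtracted, below the lower quartile. All 8 genes with reads had a higher rate in the labeled libraries by the beta-binomial test at an unadjusted p under 0.05, but so did 95.1% of genes tested (94.6% of intervals), so that this call does not set them apart. Genes are therefore compared below by the size of their rates. In 2105 genes covered at 1000 or more T positions in each library (deeply covered genes), the quartiles of the mean labeled rate were 0.0343, 0.0388 and 0.0423. These are of rates without subtraction, so that the subtracted rates of Bmp4 and Gdf15 are not on the same scale. The quartiles of the unlabeled rate in the same genes were 0.000236, 0.000507 and 0.00109.

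Inhba had rates of 0.0474, 0.0490 and 0.0493 in the labeled libraries, from 754, 438 and 189 conversions. The unlabeled rates were 0.000464 and 0 of 2798 covered positions, which allows up to 0.00107. The labeled mean of 0.0485 ± 0.00102 (SD, n = 3) was above that of 97.9% of the deeply covered genes. The beta-binomial p was 8.43e-08. In each labeled library Inhba had a higher rate than Inhbb, and its 3 values did not overlap with those of Inhbb, Bmp4, Bmp6 or Gdf10.

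Inhbb had rates of 0.0355, 0.0379 and 0.0390 in the labeled and 0.000451 and 0 in the unlabeled libraries. Its mean of 0.0375 ± 0.00181 (SD, n = 3) was above that of 40.7% of the deeply covered genes. The activin subunits thus had separate rates, while both had more reads in the labeled than in the unlabeled group.

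Bmp4 had rates of 0.0384, 0.0368 and 0.0338 in the labeled libraries, a mean of 0.0363 ± 0.00231 (SD, n = 3) that was above 33.8% of the deeply covered genes. Its unlabeled rates were 0.00111 and 0.00635, the latter from 24 conversions. The mean of these exceeded the unlabeled rate of 98.3% of the deeply covered genes, and with it subtracted the labeled mean was 0.0326. The tables also hold a separate count of reads with a T>C conversion, which took in 10.1% of Bmp4 reads in unlabeled replicate 2 and 3.88% in unlabeled replicate 1. This count does not match the conversions behind the rate, since at Bmp4 it was 25 reads for 24 conversions in unlabeled replicate 2 and 17 reads for 9 conversions in unlabeled replicate 1. What gave conversions without S4U at Bmp4 was not tested.

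Bmp6 had rates of 0.0470, 0.0471 and 0.0267 in the labeled libraries, with the low value from 10 conversions in 17 reads and a Wilson 95% interval of 0.0145 to 0.0484 that covers the other values. The unlabeled rates were 0.00288 and 0.000837. Bmp2 had 3 conversions in 176 covered positions, 6 in 121 and 1 in 22 in the labeled libraries, and 0 in 245 and 0 in 198 in the unlabeled libraries. Its rates of 0.0170, 0.0496 and 0.0455 spanned most of the range of the other ligands and gave no order.

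Gdf6 had rates of 0.0445, 0.0477 and 0.0480 in the labeled libraries and 0.000860 and 0 in the unlabeled libraries. Its mean of 0.0467 ± 0.00191 (SD, n = 3) was above that of 94.96% of the deeply covered genes. Its values did not overlap with those of Inhbb or Bmp4, but they overlapped with those of Inhba, which was higher in 3 of 3 libraries.

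Gdf15 had rates of 0.0418, 0.0414 and 0.0568 in the labeled libraries, with the highest value in labeled replicate 3 from 79 conversions. The mean was 0.0467 ± 0.00879 (SD, n = 3), and it was 0.0416 without that library. The unlabeled rates were 0.00622 and 0.00403, from 9 and 3 conversions, and their mean exceeded 99.4% of the deeply covered genes. By the separate count, 13.6% and 10% of Gdf15 reads had a conversion in these unlabeled libraries. With the unlabeled mean subtracted, the labeled mean of Gdf15 was 0.0416.

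Gdf10 had rates of 0.0296, 0.0221 and 0 of 20 covered positions, which allows up to 0.15, in the labeled libraries. Its labeled mean of 0.0172 ± 0.0154 (SD, n = 3) was 0.0258 without labeled replicate 3 and 0.0110 without labeled replicate 1. The unlabeled rates were 0.00150 and 0. Grem1 had no covered position and no rate.

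**Figure D3:**
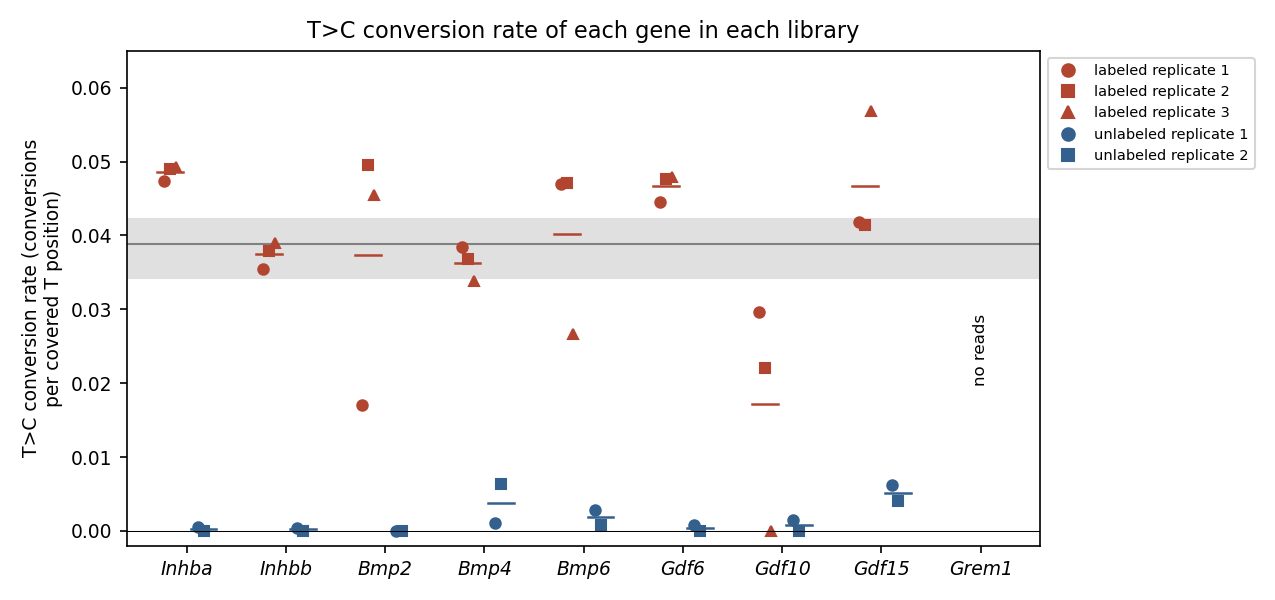
Points show the T>C conversion rate of each gene in each library as conversions per covered T position, and short lines the group means. The grey band and line mark the quartiles 0.0343 and 0.0423 and the median 0.0388 of 2105 deeply covered genes. Inhba and Gdf6 lie above the band in all labeled libraries.

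The share of converted reads by the separate count gave another order of genes, and it is shown beside the T positions that a read covered. The count was above the conversions in some unlabeled libraries, with 27 reads for 20 conversions and 2 reads for 0 conversions at Gdf6, so that it is not the number of reads behind the rate. Bmp2 had 30, 75 and 100% of reads in the labeled libraries, but from 10, 4 and 1 reads, too few to rank. Gdf10, with 19, 6 and 1 reads, had 47.4, 50 and 0%. Among the other genes with reads, Gdf6 led with 64.0, 64.9 and 64.9% in the labeled libraries at 23.6 to 25.1 covered T positions per read. Inhba, with the higher rate per position, had 43.4, 54.6 and 50.5% of reads at 12.2, 17.4 and 18.3 positions. Labeled replicate 1 thus had both the fewest covered positions and the lowest share for Inhba. Among these genes the same held for Inhbb, Bmp4 and Gdf15, but not for Bmp6 or Gdf6. Over all intervals labeled replicate 1 also covered the fewest positions per read (18.2, against 20.6 and 21.0 in labeled replicates 2 and 3). Unlabeled replicate 1 also had 12.4 positions per Inhba read, against 18.2 in unlabeled replicate 2, and the part of this difference in the Inhba reads was not tested.

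Gdf15 had 53.4, 57.1 and 62.7% converted reads and Bmp4 35.7, 39.8 and 38.0% in the labeled libraries. Inhbb had 38.3, 47.5 and 55.3% and Bmp6 61.3, 54.3 and 41.2%. The labeled libraries thus differed more for Inhba than for Gdf6 in the share of converted reads, and less in the rate per position.

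**Figure D4:**
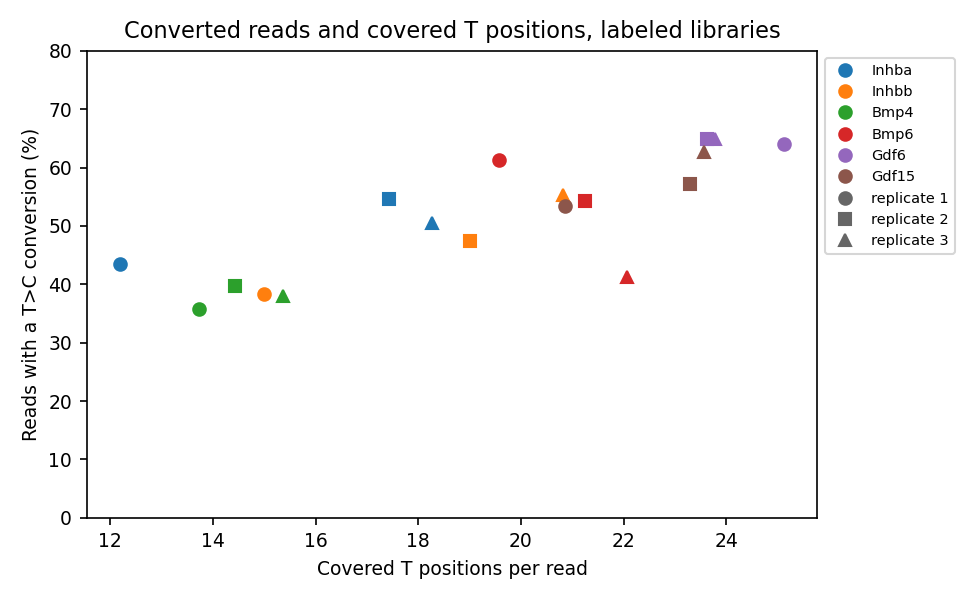
Each point is 1 gene in 1 labeled library, with covered T positions per read on the x axis and the percentage of reads in the tables' separate count of reads with a T>C conversion on the y axis. Gdf6 lies at 64.0 to 64.9% with over 23 positions per read, and Bmp4 at 35.7 to 39.8% with 13.7 to 15.4.

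The deeply covered genes with TATTTAT in the counted interval numbered 752 and had a median labeled rate of 0.0398, against 0.0383 for the 1353 without it. Of the members covered as deeply, Inhba and Bmp4 carry the heptamer and Inhbb and Gdf6 do not. Inhba and Gdf6 had the higher mean rates of these members and Inhbb and Bmp4 the lower. Gdf15, which carries the heptamer and had a mean labeled rate of 0.0467, was left out because unlabeled replicate 2 covered 744 positions. Whether the heptamer goes with the rate was not tested.

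Of 22 other activin, BMP and GDF ligands, 14 had 0 reads in every library, among them Bmp7, Gdf5, Mstn (myostatin) and Nodal, and 5 were read in every library. The most abundant was Gdf11, a close relative of myostatin, with 59.6, 41.0 and 23.7 CPM in the labeled and 97.1 and 55.2 CPM in the unlabeled libraries. Next were Lefty1, an antagonist of Nodal, with a labeled mean of 6.24 ± 5.41 CPM (SD, n = 3), Bmp3 with 3.52 ± 2.56 and Gdf9 with 2.06 ± 0.44. Of the 3 tested for reads, 0 were higher and 1 (Bmp3) was lower at an unadjusted p under 0.05, where 2.84% and 3.12% of all genes tested were, and the median log2 fold change was -0.76, against 0.02 over all genes. Every labeled library was above both unlabeled ones in 0 of these 3 and below them in 2 (8.2% and 13.1% of all genes tested). Inha, which encodes the inhibin alpha subunit, had a labeled mean of 1.15 ± 0.72 CPM and was chosen for mention as the partner of Inhba and Inhbb after its values were seen.

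Receptors and coreceptors were read more evenly. Of 16 genes 12 were read in every library and 10 tested, with 0 higher and 0 lower by the same unadjusted threshold (2.84% and 3.12% of all genes tested) and a median log2 fold change of -0.10. Every labeled library was above both unlabeled ones in 1 of these 10 and below them in 3 (8.2% and 13.1% of all genes tested). The coreceptor endoglin (Eng) had a labeled mean of 446 ± 198 CPM, the type II receptor Bmpr2 319 ± 88.8, the type I receptor Bmpr1a 208 ± 7.31 and the type I receptor Acvrl1 128 ± 36.3 (SD, n = 3). Gfral, which encodes the receptor for GDF15, had 0 reads in every library. The 12 receptors tested for T>C conversion all had a higher rate in the labeled libraries, as 95.1% of all genes tested did.

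Inhibitors outside the cell and in its membrane numbered 18 besides Grem1, and 10 of them were read in every library. Fst (follistatin), which binds activins, had 799, 377 and 316 CPM in the labeled and 253 and 121 CPM in the unlabeled libraries. Fstl3, a relative of follistatin that also binds activins, had 165, 290 and 247 against 56.4 and 95.4 CPM. Neither gene's groups overlapped, with log2 fold changes of 1.49 (SE 0.49) and 1.70 (SE 0.39) and adjusted p of 0.724 and 0.543 by edgeR.

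The other abundant inhibitors were Crim1, a membrane protein that binds BMPs, with a labeled mean of 380 ± 77.0 CPM and a log2 fold change of 0.23, and Twsg1, a modulator of BMP binding, with 218 ± 111 CPM and -0.18. Of the 7 inhibitors tested 2 (Fst and Fstl3) were higher and 1 (Bmper) lower at an unadjusted p under 0.05, where 2.84% and 3.12% of all genes tested were, and the median log2 fold change was 0.23. In 2 of these 7 every labeled library was above both unlabeled ones and in 1 below them (8.2% and 13.1% of all genes tested). Nog (noggin), another BMP antagonist that was chosen for mention after its values were seen, had 6.98, 2.51 and 5.93 CPM in the labeled and 2.71 and 1.00 CPM in the unlabeled libraries.

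All 10 Smads and Smad ubiquitin ligases were read in every library. The inhibitory Smads led, with 676, 329 and 340 CPM for Smad6 and 611, 215 and 247 CPM for Smad7 in the labeled libraries, against 279 and 163 CPM and 304 and 142 CPM in the unlabeled libraries. Smad4, the common partner Smad, had a labeled mean of 211 ± 25.3 CPM and the ubiquitin ligase Smurf2 179 ± 14.8 (SD, n = 3). Of these 10 genes 1 (Smad6) was higher and 0 lower at an unadjusted p under 0.05, where 2.84% and 3.12% of all genes tested were, with a median log2 fold change of 0.11. In 2 of them every labeled library was above both unlabeled ones and in 2 below them (8.2% and 13.1% of all genes tested).

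Of 11 BMP target genes, which include Smad6 and Smad7, 10 were tested for reads and 6 had every labeled library above both unlabeled ones, where 8.2% of all genes tested did. Id3 and Id2, inhibitors of helix-loop-helix factors, had labeled means of 1495 ± 79.1 and 709 ± 111 CPM (SD, n = 3) and log2 fold changes of 0.33 (SE 0.23) and 0.48 (SE 0.28). Those of Smad6 and Smad7 were 1.10 (SE 0.40) and 0.76 (SE 0.52). The median over the 10 genes was 0.63, 3 (Id1, Smad6 and Atoh8) were higher and 0 lower at an unadjusted p under 0.05, where 2.84% and 3.12% of all genes tested were, and none passed an adjusted p of 0.05 in edgeR without a replicate block. Labeled and unlabeled replicate 1 had the highest Smad6 and Smad7 levels of their groups, as they had for Inhba and Fst. This was not particular to these genes. It also held for Eng, Crim1, Twsg1 and the protease gene Furin, though not for Fstl3 or Id2. Over all genes tested, the deviations of these libraries from their group means correlated at 0.78.

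Of 7 proteases that process these ligands, 5 were tested, with 0 higher and 0 lower by the unadjusted threshold of 0.05 (2.84% and 3.12% of all genes tested) and a median log2 fold change of 0.02. Furin, the proprotein convertase that cleaves most of the precursors, had a labeled mean of 332 ± 97.4 CPM (SD, n = 3), Pcsk6 228 ± 24.8, Bmp1, a metalloprotease and no BMP, 157 ± 86.3 and Pcsk5 49.5 ± 10.7.

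**Figure D5:**
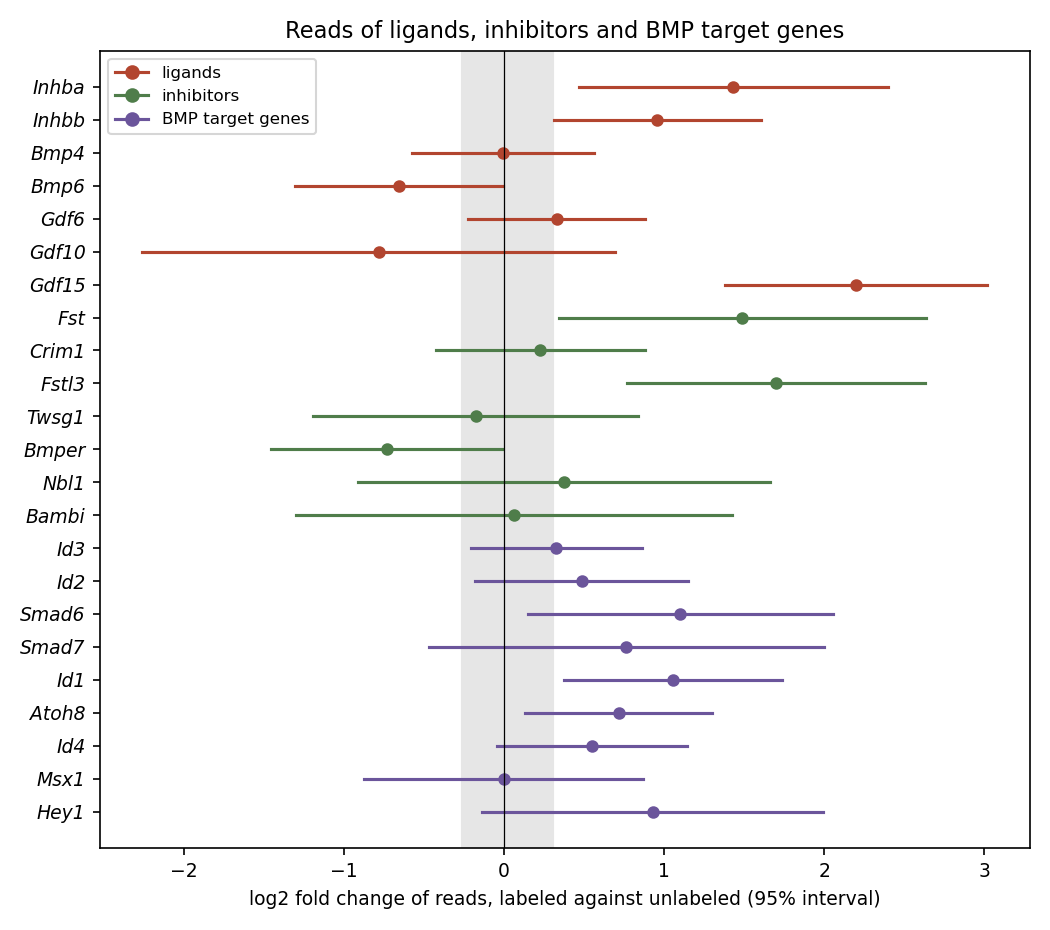
Points show the log2 fold change of reads, labeled against unlabeled, with 95% intervals from edgeR for the 7 ligands tested, 7 inhibitors and 9 further BMP target genes (Bambi is drawn with the inhibitors). The grey band marks the quartiles of all 9807 genes tested, -0.27 and 0.30. Gdf15 at 2.20 lies farthest to the right.

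Likeness of pattern was measured by the Euclidean distance over 8 scaled values, the log2 levels in 5 libraries and the log2 T>C rates in the 3 labeled ones, among 2121 genes covered at 1000 or more T positions in each labeled library. The gene nearest to Inhba was Fst, at a distance of 0.64 against a median of 3.32 to all genes, and Fst had a mean T>C rate of 0.0457 against 0.0485 for Inhba. The nearest to Inhbb was Enc1 (0.64 against 2.04), to Bmp4 Foxp2 (0.29 against 2.10) and to Gdf6 Mbnl1 (0.33 against 3.67). Gdf15 had its nearest gene, Eda2r, at 0.97 against 3.42, the largest of these distances to a nearest gene. The nearest gene lies below the median by construction, and 5 of the 8 values are levels. These distances therefore set no pair apart and were not tested.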

How the data were processed

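The authors prepared 3′ end libraries with unique molecular identifiers, sequenced 75 bp single reads, aligned them to mm39 with SLAM-DUNK 0.4.3 and removed duplicates with umi-tools. Per the file headers, the deposited tables give for each 3′ UTR interval the read counts, covered T positions and T>C conversion counts, the conversion rate as a fraction and reads in CPM. The deposited CPM used totals 7.58 to 28.9 times the reads counted here, so levels were recomputed as CPM relative to reads on 1 interval per gene. How the intervals were made is not given in the sources used here. Their T content matched GRCm39 in 40380 of 40380 intervals.

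The members and the gene lists were chosen with earlier results of these data known. Conversions were tested with a beta-binomial likelihood-ratio test (1 shared overdispersion, chi-square with 1 degree of freedom, two-sided, unadjusted p under 0.05, at least 1 covered T position in every library; numpy 2.4.6, scipy 1.17.1). Reads were tested with edgeR 4.0.16 (TMM, filterByExpr, quasi-likelihood test, two-sided, Benjamini-Hochberg adjustment over 9807 genes), with DESeq2 1.42.0 as an alternative, and limma 3.58.1 was an alternative for the conversions. Both tests were first tested on simulated data with known differences. Log2 fold changes are edgeR's, with SE from the F statistic. Intervals of a share are Wilson 95% intervals, and intervals and limits cover counting error only. Other alternatives were scaling, filters on reads and covered positions, the choice of interval and leaving out each library. Chi-square tests over genes showed every pair of replicate libraries to differ beyond counting noise. By rule, the text names of each pathway list up to 4 genes with the highest labeled level and genes past an adjusted p of 0.05, and the gene nearest in pattern to each member covered at 1000 or more T positions in each labeled library. List genes named for 0 reads (Bmp7, Gdf5, Mstn, Nodal, Gfral) or an unadjusted p under 0.05 (Bmper, Id1, Atoh8), and Inha and Nog, were chosen after their values were seen. Names and exons are from the GENCODE annotation of GRCm39.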

Additional observations from a re-analysis of the deposited data

How the results depend on the processing

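Intervals with a raised T>C rate numbered 18200, against 3154 with 1000 or more T positions covered in each library, 10634 with 1 interval per gene (both with fewer intervals tested) and 17056 to 18632 without 1 library. Of the members 8 had a raised rate, 4 at that minimum, where only 4 could be tested, and 8 without any 1 library. Genes with changed reads numbered 0 by edgeR, 0 without any 1 library, 20 by DESeq2 (13 higher and 7 lower, 1 a member, Gdf15) and 1145 with the replicate number as a block (528 higher and 617 lower, 4 of them members). That fit used replicates 1 and 2 of both groups with 1 residual degree of freedom. With the block, the log2 fold changes were 1.57 for Inhba, 0.87 for Inhbb, -0.63 for Bmp6 and 2.34 for Gdf15 (adjusted p by edgeR of 1.97e-20, 5.94e-05, 0.0418 and 9.53e-27). Deviations from the group means correlated at 0.78 for number 1, 0.63 for number 2 and 0.47 for labeled replicate 3 with unlabeled replicate 2, which has another number, and the labels do not say that a number marks a shared preparation. The log2 fold change of Bmp4 turned from -0.01 to 0.022 without labeled replicate 1, 0.063 without labeled replicate 2 and 0.066 without unlabeled replicate 2, in a range of -0.10 to 0.066 without 1 library. Under library totals, RLE factors, other read filters and another choice of interval no gene was called. CPM as deposited gave labeled means of 53.4 for Inhba and 46.8 for Gdf6, which turned their order. No member had a further interval, so that summing the intervals of a gene left the members' levels the same. With 3 against 2 libraries, depth limits Grem1 with 0 reads in all, Bmp2 with 31 and Gdf10 with 64. The causes were not tested.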
